A study of Mus musculus with 24 samples.

Results

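The genes described here are mouse chromosome 18 genes whose expression was compared between PTN knockdown and control cells of the breast cancer line E0771-LG. A list of 60 genes was chosen on their knockdown values in E0771-LG, set against E0771 and against all other genes, and on their position on chromosome 18. The table held 58 of them among 12091 genes, and the annotation placed all 58 on chromosome 18, together with 254 further genes. Map3k8 and Abhd3 were not analysed here. Because the choice used the knockdown values of both lines, the members' values in all 12 cell samples are given as a description. Nothing is read from their limma calls in either knockdown contrast or in any contrast between the lines.

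RNA of 24 samples was sequenced in 8 groups of 3 biological replicates, which form 4 experiments with a control group and a group in which PTN was inhibited. E0771 is a mammary adenocarcinoma line of C57BL/6 mice, and E0771-LG was derived from a lung metastasis of it. Cells of both lines carried either an shRNA against PTN (shPTN) or a pLKO.1 control vector with a sequence against EGFP (shCtrl), and both populations were selected with puromycin. In the tumor experiments, 4T1 tumors of BALB/c mice and *MMTV-PyMT* tumors of FVB/N mice, where the mammary tumor virus promoter drives the middle T antigen, were taken after treatment with the control antibody C44 or with 3B10, an antibody against PTN given at 15 mg/kg. In the *MMTV-PyMT* mice, treatment began once tumors were present. The methods name 1 shRNA construct, so an effect of the construct and an effect of losing PTN cannot be told apart. The shPTN and shCtrl cells were selected as separate populations, and differences that arose between the populations cannot be told apart from the knockdown either. Values are log2 CPM, the reads on a gene scaled to the same library size, in the cells and *MMTV-PyMT* tumors, with library sizes of 15.6 to 21.1 M reads per sample. The 4T1 values are on another log2 scale and their depth is unknown.

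Chromosome 18 carries genes of many unrelated functions, among them transducers of TGF-β signalling, a scaffold of the Wnt pathway, the glucocorticoid receptor and a mitochondrial chaperone. The RNA made from a chromosome tends to follow the number of its copies, and tumor cell lines often differ in that number between populations. DNA was not analysed here, and the part of copy number, or of any other cause shared along the chromosome, in the values below was not tested.

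Ptn, the target of the shRNA, lies on chromosome 6 from 36714929 to 36810220 (GRCm38) and encodes a secreted growth factor. In E0771-LG cells its values were 3.65, 4.51 and 3.74 log2 CPM in shCtrl and 1.42, 0.98 and 1.38 in shPTN. In E0771 cells they were 2.90, 2.18 and 2.28 in shCtrl and −0.63, 0.25 and 0.53 in shPTN. The ranges did not meet in either line, and shPTN left 15.3% of the control level in E0771-LG and 18.9% in E0771. By limma, the adjusted p was 6.3e-05 in E0771-LG and 0.00159 in E0771.

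Markers of the labelled cells were read next. Vim, an intermediate filament gene of mesenchymal cells, had means of 12.15, 12.03, 12.47 and 12.12 log2 CPM in E0771 shCtrl, E0771 shPTN, E0771-LG shCtrl and E0771-LG shPTN. The epithelial keratin gene Krt8 had means of 6.62, 6.57, 7.31 and 8.87 in the same order, and Epcam had 2.92, 3.51, 3.87 and 4.33. Krt19 and Cdh1, further epithelial markers, were at no more than 7 reads in any cell sample. Krt18, the partner of Krt8, had 117 to 150 reads in E0771-LG shPTN and no more than 18 reads in the other cell samples. Among leukocyte markers, S100a9 was at 0 reads in all 12 cell samples and Ptprc reached at most 13 reads. The cell samples thus had epithelial markers in part only.

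Single markers of several cell types had separate ranges in E0771-LG shPTN and shCtrl. Of 23 markers in the table, 8 were higher in shPTN without overlap of the groups, beside 30.5% of all genes tested, and 3 were lower, beside 26.7%. The 8 were Krt8, Krt18, Krt19, Epcam, Krt14, Cd68, the endothelial Pecam1 and the fibroblast gene Dcn, and the 3 were Vim, Csf1r and Pdgfra. Several of these had few reads. Krt19 had 0 reads in shCtrl and 1 to 5 in shPTN, Krt14 had 4 to 6 and 7 to 10, and Csf1r had 2 to 14 and 0 to 1. The shares cover only genes that passed the filter on low values, so nothing is read from the counts of markers. Cd68 had 11 to 27 reads in E0771-LG shCtrl and 70 to 105 in shPTN, and 72 to 311 in E0771 cells. Dcn had 5 to 30 reads in E0771-LG shCtrl and 34 to 61 in shPTN. Summed over the 6 epithelial markers, of which Krt8 was the most abundant, the samples had 159, 205 and 165 CPM in E0771-LG shCtrl and 426, 567 and 518 in shPTN. The 7 leukocyte markers, led by Cd68, summed to 1.28, 0.923 and 2.21 CPM and then to 3.47, 6.74 and 5.65, but without Cd68 these groups overlapped. The 4 fibroblast markers, led by Pdgfra, summed to 65.3, 107 and 80.7 CPM and then to 51.2, 51.8 and 60.0, and without Pdgfra these overlapped as well. For the 3 endothelial markers, led by Cdh5, the sums overlapped. Without Cdh5 they did not, with 0.291, 0.82 and 0.81 CPM in E0771-LG shCtrl and 1.05, 1.67 and 1.27 in shPTN. In E0771 the 4 fibroblast markers summed to 45.9, 69.4 and 59.7 CPM in shCtrl and to 272, 218 and 261 in shPTN. Among them, Col3a1 had 333 to 441 reads in E0771 shCtrl and 2225 to 3471 in E0771 shPTN. The sums of the epithelial, leukocyte and endothelial markers overlapped between the E0771 groups. Without Krt8 the epithelial sums did not, with 8.85, 6.84 and 8.53 CPM in E0771 shCtrl and 15.4, 11.2 and 12.1 in shPTN. The leukocyte sums without Cd68 and the endothelial sums without Cdh5 still overlapped there. The part of the marker differences of either line in the values below was not tested.

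The libraries differed in how expression varied with transcript length. Over 10336 genes on other chromosomes, the slope of a sample's log2 deviation on log2 transcript length was −0.20, −0.28 and −0.20 in the E0771-LG shPTN samples and −0.017, 0.049 and 0.081 in the E0771-LG shCtrl samples. Long transcripts were thus lower and short ones higher in all 3 E0771-LG shPTN libraries. In E0771 the slopes were 0.070, 0.17 and 0.058 in shCtrl and −0.038, 0.20 and 0.0995 in shPTN, and these groups overlapped. E0771-LG shCtrl replicate 1 had lower values than its 2 partners for several members, among them Apc, Tcof1 and Kif5b. For others it had the highest value of the group, among them Csnk1a1, Etf1, Slc39a6 and Rprd1a. Its member median relative to other chromosomes was 0.246, against 0.153 and 0.217 in its partners. Without replicate 1 of E0771-LG shCtrl, 8 of 54 members moved by over 1.5 times or changed sign. The difference between the member median and that of other chromosomes, given below, was −0.60 in place of −0.57. Without each other sample of E0771-LG in turn, 9, 7, 6, 5 and 4 members moved as far. Where a member is described below, every such value or their range is given, in both directions.

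Members of chromosome 18 were lower in E0771-LG shPTN than in E0771-LG shCtrl. Of the 54 members that passed the filter on low values, 47 had a log2 fold change below 0, and the median was −0.51, against 0.060 over 10147 genes on other chromosomes. The difference of these medians, −0.57, is a ratio of 0.675. At an adjusted p under 0.05 by limma, 36 members were lower, beside 22.1% of all genes tested, and 3 were higher, beside 24.3% of all genes, whereas 15 passed in neither direction. The 3 were Acaa2, Snrpd1 and Haus1, and 1 gene was higher without E0771-LG shPTN replicate 2. Nothing is read from these counts, since this contrast chose the members. The 204 further chromosome 18 genes tested had a median of −0.46, and 161 of them were below 0. Their median lay −0.52 from that of other chromosomes. These genes are not on the list, but the chromosome itself was chosen on values of this contrast, so theirs are a description too.

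Each sample was then read on its own, as the median deviation of the members from their means over the 12 cell samples, relative to genes on other chromosomes. It was 0.25, 0.15 and 0.22 in E0771-LG shCtrl and −0.28, −0.37 and −0.36 in E0771-LG shPTN. The group means were 0.21 (SD 0.048, n = 3) and −0.34 (SD 0.047, n = 3), which is a description, since the members were chosen on this difference. In E0771 it was 0.13, 0.14 and 0.058 in shCtrl and −0.0195, 0.085 and 0.012 in shPTN, so these groups overlapped. The chromosome 18 genes outside the list had 0.23, 0.16 and 0.19 in E0771-LG shCtrl and −0.35, −0.32 and −0.30 in E0771-LG shPTN. In E0771 they had 0.0895, 0.16 and 0.105 in shCtrl and −0.022, 0.017 and −0.0073 in shPTN, and here the groups did not overlap. Reads on chromosome 18 genes were 2.23%, 2.17% and 2.20% of all reads on genes in E0771-LG shCtrl and 1.60%, 1.59% and 1.63% in E0771-LG shPTN. In E0771 they were 2.08%, 2.12% and 2.08% in shCtrl and 1.91%, 1.97% and 1.94% in shPTN, again without overlap.

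**Figure D1:**
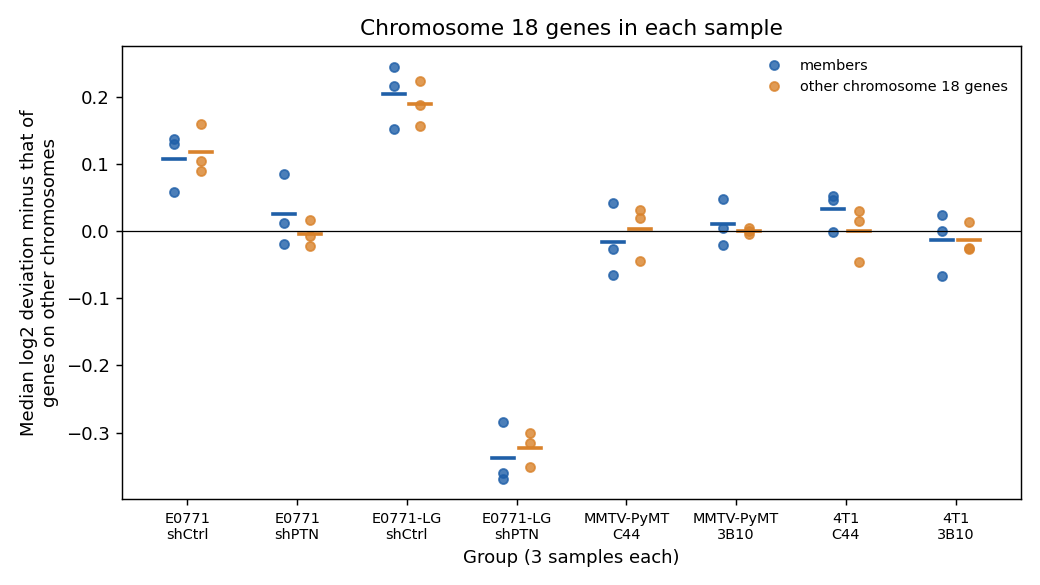
Median log2 deviation of the members (blue) and of the other chromosome 18 genes (orange) in each sample, minus that of genes on other chromosomes, with bars at group means; deviations are from the mean over the 12 cell samples or over the 6 samples of each tumor experiment. The 3 E0771-LG shPTN samples lie between −0.37 and −0.28 for the members.

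Chromosome 18 had the lowest median of the 20 chromosomes in E0771-LG, with −0.47 over 258 genes, 54 of them members. The chromosome was part of the choice made on this contrast, so its place is a description. The other 19 ran from −0.032 on chromosome 1 to 0.21 on chromosome 10. On chromosome 18, 55.8% of the genes tested were lower at an adjusted p under 0.05 by limma, and the highest share on another chromosome was 28.3%. Of the 204 chromosome 18 genes outside the list, 52.9% were lower. In E0771 chromosome 18 also had the lowest median, −0.13, but the next, chromosome 13, was at −0.084.

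**Figure D2:**
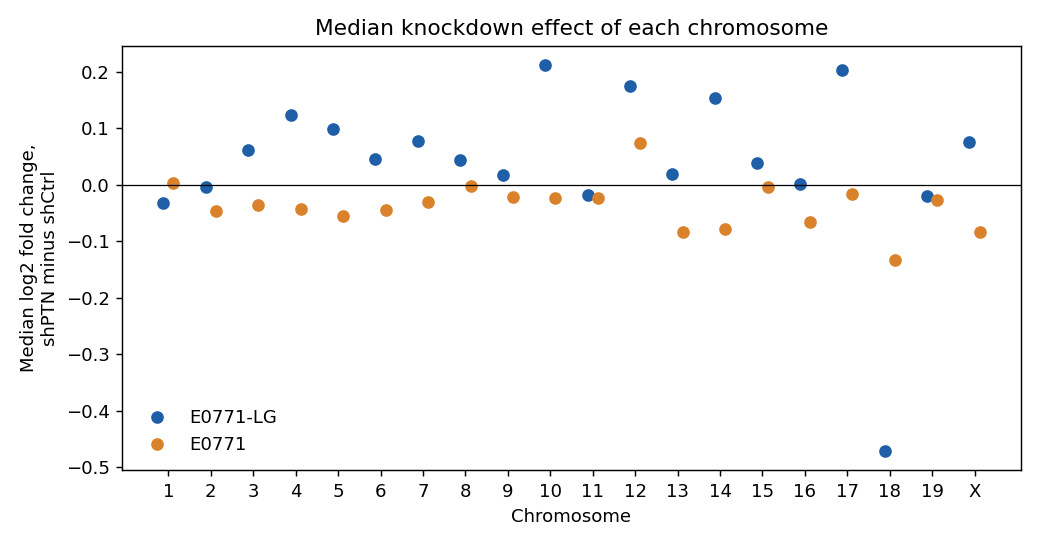
Median log2 fold change of shPTN minus shCtrl over the genes tested on each chromosome, in E0771-LG (blue) and E0771 (orange). Chromosome 18 is at −0.47 in E0771-LG, below the other 19 chromosomes, and at −0.13 in E0771; it was chosen on the E0771-LG values.

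Genes were next split into 3 classes of equal size by transcript length, by GC content and by expression level. Among genes on other chromosomes, those with the shortest transcripts had a median of 0.34 in E0771-LG and those with the longest −0.23. Chromosome 18 genes of the same classes had −0.11 and −0.65, which is −0.45 and −0.42 from the other genes, and those of middle length lay −0.51 from them. By GC content, the difference was −0.49 in the lowest class and −0.52 in the highest. By expression level, it was −0.67, −0.46 and −0.52 from the lowest to the highest class, so chromosome 18 genes were the lower in each class of these splits. Members had longer transcripts than genes on other chromosomes, with a median of 4226 bases against 3449, and a lower GC content, 45.3% against 49.8%. After a correction for GC content and length, which was added after the data were seen, the member median lay −0.38 from that of other chromosomes, and chromosome 18 was still the lowest, at −0.44 against −0.16 to 0.13 on the other chromosomes. With the same correction it was at −0.073 in E0771, where the lowest of the others was at −0.037.

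Of 10 signalling and adhesion genes in the table, 8 were tested in E0771-LG, and all 8 had values below 0, from −1.48 to −0.43, with a median of −0.61. Csnk1a1 encodes casein kinase 1α, which phosphorylates β-catenin and so acts against Wnt signalling. It had 8.66, 8.43 and 8.38 log2 CPM in E0771-LG shCtrl and 7.61, 7.64 and 7.75 in shPTN, a log2 fold change of −0.83 (SE 0.10). In E0771 the shPTN values were the higher, with 8.07, 8.11 and 8.04 in shCtrl and 8.20, 8.32 and 8.24 in shPTN. Ctnna1 encodes α-catenin, which links cadherins to actin. It had 8.24, 8.55 and 8.54 in E0771-LG shCtrl and 7.90, 7.84 and 7.94 in shPTN (log2 fold change −0.55, SE 0.10). Garem1, an adaptor of growth factor receptor signalling, had the lowest log2 fold change of the members, −1.48 (SE 0.26). Its values were 2.74, 2.68 and 2.75 in E0771-LG shCtrl and 1.54, 1.09 and 1.11 in shPTN, and rest on 115 to 125 and 37 to 61 reads. The TGF-β transducers Smad2 and Smad4 had log2 fold changes of −0.52 (SE 0.10) and −0.82 (SE 0.11), and the ubiquitin ligase gene Mib1, which acts on Notch ligands, had −0.67 (SE 0.11). Pik3c3, the lipid kinase of autophagy and endosomes, had −0.43 (SE 0.12).

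Apc, the scaffold of the β-catenin destruction complex, had 5.82, 6.82 and 7.04 log2 CPM in E0771-LG shCtrl and 6.20, 5.79 and 6.07 in shPTN. The groups overlapped through replicate 1 of shCtrl alone. The log2 fold change was −0.54 (SE 0.33) with all samples. It was −0.91 without that replicate and −0.30 without shCtrl replicate 3.

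All 10 transcription and chromatin genes were tested and had values below 0, with a median of −0.52. Nr3c1 encodes the glucocorticoid receptor. It had 7.32, 6.98 and 7.23 log2 CPM in E0771-LG shCtrl and 6.48, 6.00 and 6.28 in shPTN, which left 52.8% of the control level. In E0771 it had 7.32, 7.27 and 7.26 in shCtrl and 6.96, 7.17 and 7.07 in shPTN, a log2 fold change of −0.22 (SE 0.08) against −0.92 (SE 0.14) in E0771-LG. Rprd1a, whose protein binds the C-terminal domain of RNA polymerase II, had 5.57, 5.40 and 5.32 in E0771-LG shCtrl and 4.06, 3.93 and 3.99 in shPTN. That is 37% of the control level, with samples of a group close together. In E0771 it was also lower, with a log2 fold change of −0.53 (SE 0.10). Elp2, a subunit of the Elongator complex that modifies tRNA, had 7.25, 7.17 and 7.19 in E0771-LG shCtrl and 6.71, 6.83 and 6.85 in shPTN (log2 fold change −0.41, SE 0.09). Mbd2, a reader of methylated DNA, had −0.61 (SE 0.10) in E0771-LG and −0.88 (SE 0.09) in E0771, so it was lower in both lines. Its relative Mbd1 had −0.41 (SE 0.14) and 0.12 (SE 0.11). Of the further genes of the group, Taf4b, a subunit of a general transcription factor, had −0.71 (SE 0.16), and Ss18, a subunit of chromatin remodelling complexes, −0.52 (SE 0.09). The histone demethylase gene Kdm3b had −0.51 (SE 0.14), the CpG-binding protein gene Cxxc1 −0.50 (SE 0.14) and the basic helix-loop-helix factor gene Tcf4 −0.48 (SE 0.16), which was −0.31 without shCtrl replicate 2.

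Of the 10 RNA and translation genes, 7 had values below 0, with a median of −0.38 and a range from −0.86 to 0.49. Etf1 encodes the release factor that ends translation at stop codons. It had 9.15, 8.82 and 8.97 log2 CPM in E0771-LG shCtrl and 8.18, 8.07 and 8.12 in shPTN, or 55.1% of the control level. In E0771 its values were 8.58, 8.46 and 8.45 in shCtrl and 8.42, 8.60 and 8.50 in shPTN, which overlapped. Mtpap, the mitochondrial poly(A) polymerase gene, is the first member in chromosome order and had a log2 fold change of −0.69 (SE 0.13) in E0771-LG and −0.47 (SE 0.11) in E0771. Tcof1, which acts in ribosomal RNA synthesis, had 7.73, 8.86 and 8.84 in E0771-LG shCtrl and 8.21, 8.16 and 8.14 in shPTN. Its log2 fold change was −0.30 (SE 0.31). It was −0.68 without shCtrl replicate 1, the sample that stood apart, −0.11 without shCtrl replicate 2 and −0.12 without shCtrl replicate 3. Snrpd1 encodes a core protein of the spliceosome. It had 7.24, 6.79 and 6.89 in E0771-LG shCtrl and 7.41, 7.58 and 7.38 in shPTN, and each shPTN value was the higher, but the log2 fold change of 0.49 (SE 0.12) became −0.03 after the correction for GC content and length. Elac1, a tRNA processing enzyme gene, had a log2 fold change of 0.27 (SE 0.22), and its groups overlapped. It was 0.45 without shPTN replicate 1 and 0.17 without shPTN replicate 2. Wdr36, which acts in ribosome assembly, had −0.63 (SE 0.13), the kinase gene Riok3 −0.45 (SE 0.10), the translation factor gene Ctif −0.44 (SE 0.15) and Impact −0.33 (SE 0.16). Without shPTN replicate 1 Impact had −0.51, and without shPTN replicate 2 −0.18. Srp19, a component of the signal recognition particle, had 0.02 (SE 0.12), and −0.03 to 0.10 leaving out 1 sample at a time.

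Of 10 genes of the cytoskeleton, motors and cell division, 9 were tested, and 7 had values below 0, with a median of −0.41. Kif5b, a kinesin heavy chain, had 7.59, 8.21 and 8.27 log2 CPM in E0771-LG shCtrl and 7.24, 7.01 and 7.34 in shPTN (log2 fold change −0.83, SE 0.18). In E0771 it was 0.04 (SE 0.10). Mapre2, which encodes a microtubule plus-end protein, had 7.15, 6.88 and 6.96 in E0771-LG shCtrl and 6.42, 6.22 and 6.28 in shPTN. In E0771 it had 6.65, 6.50 and 6.56 in shCtrl and 6.89, 7.0 and 6.89 in shPTN, so it was the higher with shPTN there. Epb41l4a, a gene of the band 4.1 family, had 4.60, 4.40 and 4.44 in E0771-LG shCtrl and 3.13, 3.16 and 2.96 in shPTN, or 38% of the control level. Its log2 fold change in E0771 was 0.12 (SE 0.12). The formin gene Fhod3 had 3.29, 3.90 and 4.01 in E0771-LG shCtrl and 2.78, 2.64 and 2.98 in shPTN (−0.93, SE 0.22). Svil, an actin-binding protein gene, had −0.41 (SE 0.27), with −0.70 without shCtrl replicate 1 and −0.19 without shCtrl replicate 2. Esco1, which acts on cohesin, had −0.37 (SE 0.21). It was −0.60 without shCtrl replicate 1, −0.24 without shCtrl replicate 2 and −0.22 without shPTN replicate 3. Rbbp8, which acts in DNA end resection, had −0.15 (SE 0.14), with −0.27 and −0.08 without shCtrl replicates 1 and 3 and −0.02 without shPTN replicate 2. Haus1, a subunit of the augmin complex of the spindle, had 5.17, 5.08 and 5.02 in E0771-LG shCtrl and 5.42, 5.49 and 5.32 in shPTN. The difference was 0.32 (SE 0.11), and 0.62 after the correction for GC content and length. Its exons overlap those of Atp5a1 on the opposite strand, and because the strand setting of the counting is not given in the sources used here, their reads cannot be told apart there. Cables1 had 8 to 47 reads in E0771-LG shCtrl and 25 to 35 in shPTN, and its value of 0.43 (SE 0.58) is within its error. It was 0.94 without shCtrl replicate 2 and −0.26 without shCtrl replicate 3. In E0771 it had at most 3 reads in shCtrl and 13 in shPTN and did not pass the filter on low values.

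Of 8 genes of membranes, transport and lipids in the table, 7 were tested, and 6 had values below 0, with a median of −0.53. The zinc transporter gene Slc39a6 had 7.81, 7.51 and 7.76 log2 CPM in E0771-LG shCtrl and 6.79, 6.44 and 6.55 in shPTN, which left 46.7%. In E0771 it had 7.10, 6.89 and 6.78 in shCtrl and 6.57, 6.94 and 6.67 in shPTN, and the groups overlapped. Reep5, which shapes the endoplasmic reticulum, had 7.33, 7.45 and 7.24 in E0771-LG shCtrl and 7.04, 7.33 and 7.38 in shPTN. Its groups overlapped, with a log2 fold change of −0.09 (SE 0.11). It was −0.03 without shCtrl replicate 2, 0.02 without shPTN replicate 1 and −0.15 without shPTN replicate 3. The cholesterol export gene Npc1 had −0.72 (SE 0.10), although its exons overlap those of Rmc1 on the opposite strand. Trappc8, a subunit of a vesicle tethering complex, had −0.74 (SE 0.10), and the oxysterol-binding protein gene Osbpl1a −0.53 (SE 0.17). Dym, which acts at the Golgi, had −0.34 (SE 0.13), and Ier3ip1 0.05 (SE 0.16), which was −0.07 to 0.15 leaving out 1 sample at a time.

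The 8 genes of mitochondria and metabolism had the median nearest 0 of the role groups, −0.28, with 7 below 0. Hspa9 encodes the mitochondrial Hsp70 chaperone. It had 10.09, 10.14 and 10.12 log2 CPM in E0771-LG shCtrl and 9.83, 9.85 and 9.85 in shPTN, a small difference of −0.28 (SE 0.07) with little spread. Txnl1, a thioredoxin-like gene, had 8.10, 7.60 and 7.67 in E0771-LG shCtrl and 7.73, 7.71 and 7.69 in shPTN, which overlapped. Its log2 fold change was −0.08 (SE 0.13), with 0.08, −0.17 and −0.14 without shCtrl replicates 1, 2 and 3 in turn. Its exons overlap those of Wdr7 on the opposite strand. Me2, a mitochondrial malic enzyme gene, had −0.77 (SE 0.09), and Fech, which inserts iron into heme, had −0.71 (SE 0.11). Acaa2, a thiolase gene of fatty acid oxidation, had the highest log2 fold change of the members. It had 2.89, 3.51 and 3.33 in E0771-LG shCtrl and 3.90, 4.01 and 4.04 in shPTN (0.74, SE 0.19), from 128 to 222 and 286 to 314 reads. After the correction for GC content and length it was 0.34. The hydrolase gene Hdhd2 had −0.30 (SE 0.11) and the dipeptidase gene Cndp2 −0.28 (SE 0.14), which was −0.16 without shPTN replicate 1. Timm21, of the mitochondrial protein import machinery and the last member in chromosome order, had −0.14 (SE 0.16). Of the 2 ubiquitin genes, Rnf138, a ligase gene, had −0.77 (SE 0.16). Wac had −0.29 (SE 0.13).

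The correction for GC content and length moved 26 of the 54 members by over 1.5 times or changed their sign, and 28 by less. Of the 26, 15 came nearer to 0. In signalling and adhesion these were Smad2, at −0.21 after the correction, Apc at −0.30 and Mib1 at −0.38. In transcription they were Tcf4 at −0.20 and Kdm3b at −0.29, and in translation Ctif at −0.27. Further ones were Svil at −0.14, Wac at −0.10, Npc1 at −0.46, Dym at −0.22, Fech at −0.42, Hdhd2 at −0.07 and Txnl1 at −0.02, with Cables1 at 0.28 and Acaa2 at 0.34 among the members above 0. Further from 0 came 7 members, namely Mbd2 at −0.97, Cxxc1 at −0.76, Cndp2 at −0.56, Timm21 at −0.31, Reep5 at −0.17, Elac1 at 0.47 and Haus1 at 0.62. The sign changed in 4, with Snrpd1 at −0.03, Ier3ip1 at −0.32, Rbbp8 at 0.07 and Srp19 at −0.01. The members with values for every sample above that are not among these, such as Garem1, Rprd1a, Epb41l4a, Slc39a6, Etf1, Csnk1a1 and Nr3c1, moved by less than 1.5 times.

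**Figure D3:**
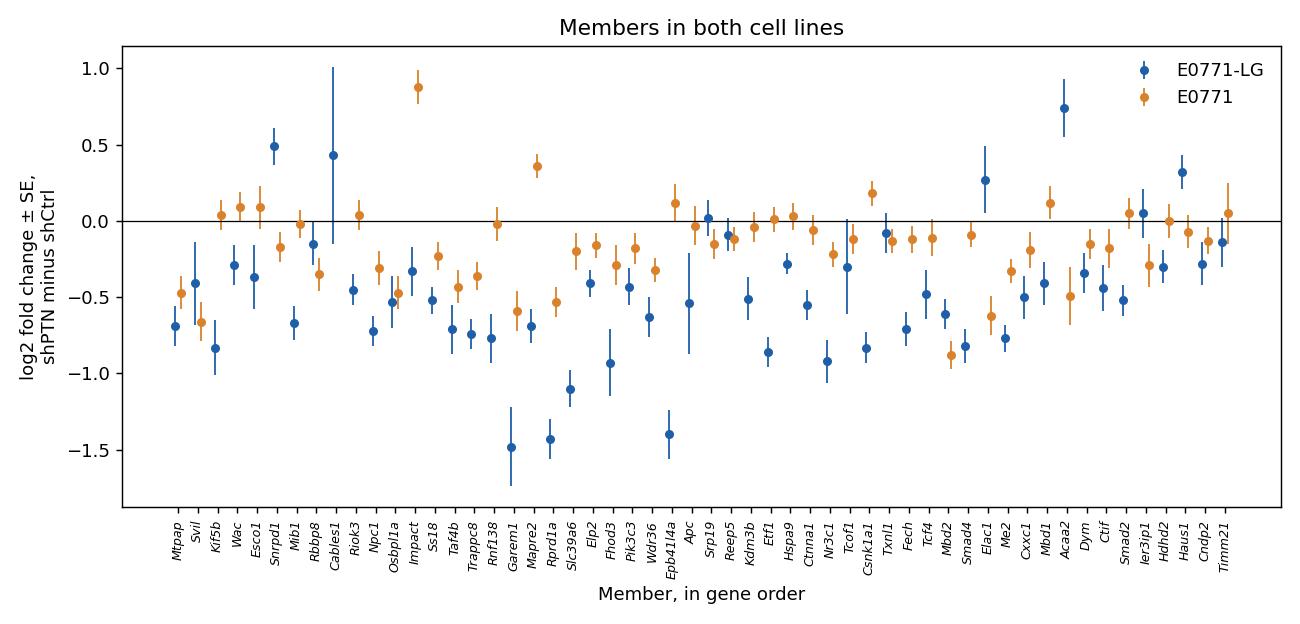
Log2 fold change of shPTN minus shCtrl with its SE for each member tested, in chromosome order, in E0771-LG (blue) and E0771 (orange). Of 54 members, 47 are below 0 in E0771-LG, and of 53 members 40 are below 0 in E0771.

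Kctd1, B4galt6, Mcc and Myo5b did not pass the filter on low values in either line. Kctd1 had at most 1 read in any E0771-LG sample, B4galt6 and Myo5b at most 6 and 5, and Mcc at most 15.

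For position, the chromosome 18 genes tested were split in order into 5 segments of 51 or 52 genes, which held 24, 9, 1, 4 and 16 members. The medians in E0771-LG were below those of other chromosomes in all 5, also where few members lie. Relative to other chromosomes, the median was −0.62 from Crem to Slc25a46, −0.53 from Sap130 to Wdr55, −0.57 from Hars to Phax, −0.45 from Lmnb1 to Ldlrad4 and −0.47 from Fam210a to Tmx3. The segments reach from 3266048 to 90543267 on chromosome 18 (GRCm38). In E0771 the same segments had −0.26, 0.015, −0.078, −0.13 and −0.11. A running median over 11 neighbouring genes was below 0 in 245 of 248 windows in E0771-LG. It was above 0 in 3 windows, those centred on Ppic, Cep120 and Acaa2, with a highest value of 0.14 at Ppic. The lowest, −0.99, was at both Slc39a6 and Elp2. In E0771 189 windows were below 0, and the lowest was −0.43.

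**Figure D4:**
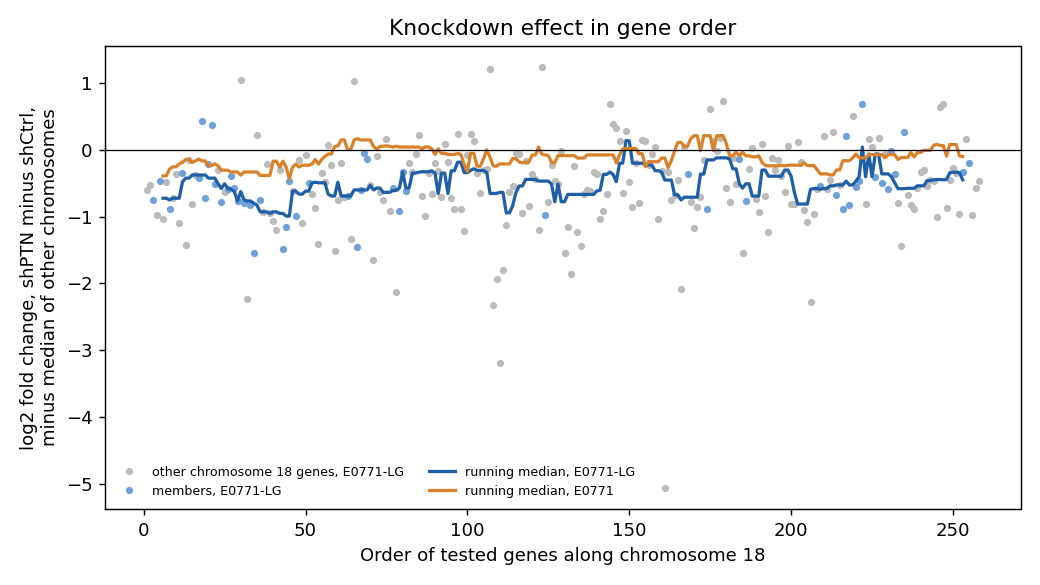
Log2 fold change of each chromosome 18 gene tested in E0771-LG, minus the median of other chromosomes, by order along the chromosome (members light blue, other genes grey), with running medians over 11 genes in E0771-LG (blue) and E0771 (orange). The E0771-LG line is below 0 in 245 of 248 windows.

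Chromosome 18 genes outside the list were named by their level, the 8 with the highest mean log2 CPM in the cells, a rule chosen after the data were seen. Atp5a1, a subunit of ATP synthase, had 10.38, 10.20 and 10.23 log2 CPM in E0771-LG shCtrl and 9.65, 9.64 and 9.65 in shPTN. Usp14, a deubiquitinase of the proteasome, had 8.05 (SD 0.18, n = 3) and 7.30 (SD 0.01, n = 3). The tubulin gene Tubb6 had a log2 fold change of −0.34 (SE 0.09) and the RNA-binding protein gene Matr3 −0.27 (SE 0.09). The tRNA synthetase genes Nars and Lars had −0.23 (SE 0.09) and −0.17 (SE 0.09), and the lamin gene Lmnb1 −0.17 (SE 0.09). In all 7 of these the shPTN samples lay below the shCtrl samples without overlap, as in 26.7% of all genes tested. Lars and Lmnb1 did not pass at an adjusted p under 0.05 by limma. Exons of Usp14 overlap those of Thoc1 on the opposite strand. The ribosomal protein gene Rps14 had 0.09 (SE 0.11), and its groups overlapped. Clustered protocadherins share exons, so their counts are uncertain, and without them the median of the genes outside the list lay −0.50 from that of other chromosomes.

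Related genes on other chromosomes were set beside the members, from pairs with similar protein products or a shared step. In 28 of 33 pairs tested in E0771-LG, the member had the lower log2 fold change. The median was −0.52 over the 28 members of these pairs and 0.10 over the 33 related genes. All 38 related genes tested had a median of 0.0089, since 5 whose member was not tested were mostly low, with Abhd2 at −1.20, Map3k14 at −0.85, B4galt5 at −0.71, Myo5a at −0.54 and Kctd15 at 0.19. The members were chosen on these values and the related genes were not, so the count is a description. For Csnk1a1 at −0.83, Csnk1d had −0.36 and Csnk1e 0.24. For Etf1 at −0.86, its partner in termination Gspt1 had −0.46. Kif5a had 0.94, Mapre1 −0.15 and Mapre3 1.38, and the chaperone genes Hspa5 and Hspa8 had 0.50 and 0.00. Txn1, related to Txnl1, had 0.70. In 5 pairs the member was the higher. The gap was widest for Cables1 at 0.43 with Cables2 at −0.98 and for Elac1 at 0.27 with Elac2 at −0.69. The others were Tcf4 at −0.48 with Tcf12 at −0.83, Reep5 at −0.09 with Reep6 at −0.26, and Slc39a6 at −1.10 with Slc39a10 at −1.19.

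**Figure D5:**
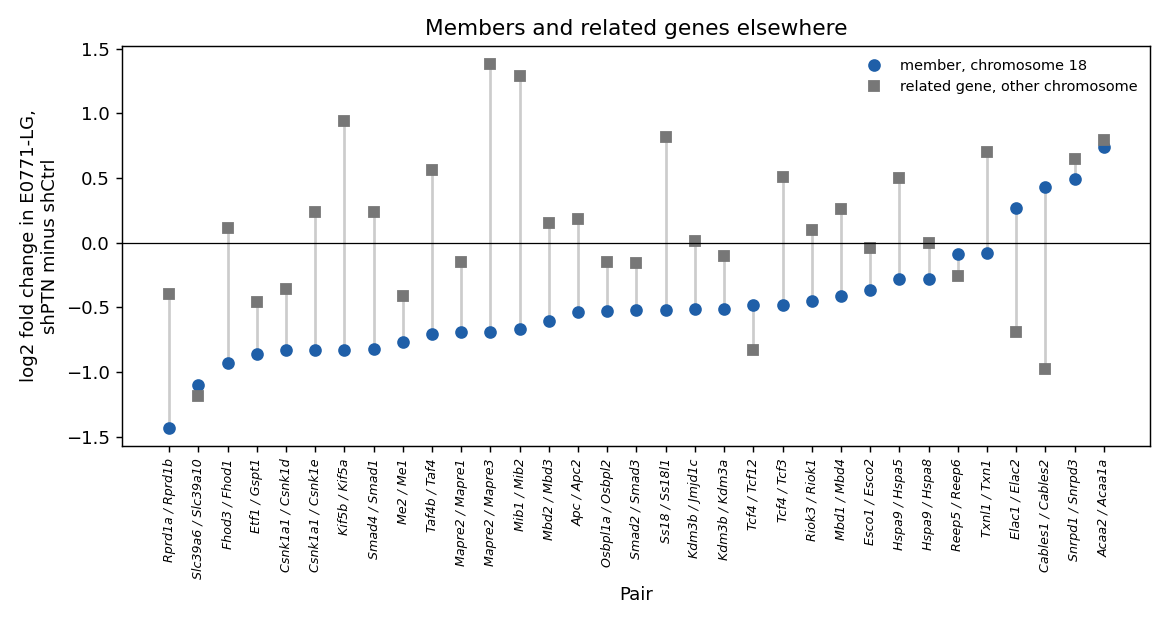
Log2 fold change in E0771-LG of members (blue circles) and of related genes on other chromosomes (grey squares), 1 line per pair, ordered by the member. The member is the lower in 28 of 33 pairs, as a description, since members were chosen on these values.

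The choice set E0771-LG against E0771, so the values in E0771 are a description too. In E0771 cells 40 of 53 members tested, or 75.5%, were below 0. This stood beside 54.6% of all genes and 75.7% of the related genes on other chromosomes. The member median was −0.13, against −0.029 on other chromosomes, a difference of −0.11 or a ratio of 0.929. After the correction for GC content and length the difference was −0.065. At an adjusted p under 0.05 by limma, 12 members were lower, beside 11.7% of all genes, and 2 were higher, beside 8.89%. The count of lower members was 7 without shCtrl replicate 2, shCtrl replicate 3 or shPTN replicate 3, and that of higher ones was 1 without either of those shCtrl replicates. The 12 were Mbd2, Rprd1a, Elac1, Garem1, Svil, Mtpap, Osbpl1a, Taf4b, Trappc8, Wdr36, Me2 and Rbbp8, and the 2 were Mapre2 and Impact. Impact, a translation regulator gene, had 6.70, 6.45 and 6.40 log2 CPM in E0771 shCtrl and 7.29, 7.55 and 7.33 in shPTN. The knockdown effect in E0771-LG minus that in E0771 had a median of −0.37 over 54 members and 0.092 over genes on other chromosomes, a difference of −0.47. By the interaction term of limma 23 members were lower, beside 15.7% of all genes, and 3 were higher, beside 18.3%, which is again a description, with 5 higher without E0771-LG shCtrl replicate 1.

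The lines were also compared with each other, in samples that the contrasts above share. Between E0771-LG shCtrl and E0771 shCtrl, the member median lay 0.053 from that of other chromosomes. It turned to −0.014 with no filter on low values and to −0.0025 after the correction for GC content and length. With a filter on a mean of at least 10 it was 0.0115. It was 0.134 without E0771-LG shCtrl replicate 2 and 0.0288 without E0771 shCtrl replicate 2. Single-sample medians had an SD of 0.048 between replicates. Per sample, the members had 0.246, 0.153 and 0.217 in E0771-LG shCtrl and 0.13, 0.138 and 0.0581 in E0771 shCtrl, without overlap. The other chromosome 18 genes had 0.225, 0.157 and 0.189 and then 0.0895, 0.16 and 0.105, with overlap. Chromosome 18 took 2.17% to 2.23% and 2.08% to 2.12% of reads. The 5 segment medians lay 0.0316 to 0.166 from other chromosomes. There were 20 members lower in E0771-LG, beside 37.3% of all genes, and 12 higher, beside 20.5%. Under quantile normalization 14 were lower and 14 higher, and under median-of-ratios scaling 15 and 17. After the correction for GC content and length there were 15 and 18. The shares of all genes under these settings are not given here, so nothing is read from the counts of members. Chromosome 18 as a whole, at −0.083, was within the range of the other chromosomes, which ran from −0.48 on chromosome 17 to 0.24 on chromosome 11. Between E0771-LG shPTN and E0771 shPTN, the member median lay −0.32 from that of other chromosomes, with 33 members lower, beside 36.5% of all genes, and 7 higher, beside 25.5%. Without 1 sample, the count of higher members was 4 for E0771 shPTN replicates 1 and 2 and for E0771-LG shPTN replicate 1, 3 for E0771-LG shPTN replicate 2 and 2 for E0771 shPTN replicate 3. Chromosome 18 was at −0.44 there and chromosome 16 at −0.41, so chromosome 18 did not stand apart in that comparison.

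The tumors were not used to choose the members. In *MMTV-PyMT* tumors all 58 members were tested, and the median log2 fold change of 3B10 against C44 was 0.070, against 0.051 on other chromosomes, a difference of 0.019. With a filter on a mean of at least 10 it was 0.011. It turned to −0.035 without C44 replicate 1 and ran from 0.0046 to 0.055 without each other sample. In 4T1 tumors 56 were tested, without Garem1 and Mcc, and the difference was −0.0105. It was −0.0365 with quantile normalization and −0.018 with a filter on a mean of at least 10. It turned to 0.0039 without 3B10 replicate 1 and ran from −0.057 to −0.013 without each other sample, so neither direction held in all of these. At an adjusted p under 0.05 by limma, 0 members differed in either tumor experiment, beside 0% of all genes in *MMTV-PyMT* and 0% in 4T1 tumors. At an unadjusted p under 0.05 there were 2 members in *MMTV-PyMT* tumors, or 3.45% beside 2.7% of all genes. These were Impact, with 4.21, 3.94 and 2.93 log2 CPM with C44 and 4.81, 4.51 and 4.21 with 3B10, and Me2, with 3.97, 4.48 and 4.42 and then 4.68, 4.72 and 4.85. Both had an adjusted p of 1 by limma. In 4T1 tumors there was 1 member, or 1.79% beside 6.27% of all genes. It was Acaa2, with log2 values of 6.42, 6.67 and 6.52 with C44 and 6.84, 7.09 and 7.05 with 3B10 (log2 fold change 0.46, SE 0.13, adjusted p = 0.722 by limma). Per sample, the member median relative to other chromosomes was −0.065, −0.026 and 0.042 with C44 and −0.0197, 0.0049 and 0.048 with 3B10 in *MMTV-PyMT* tumors. It was 0.047, 0.052 and −0.0015 with C44 and −0.066, 0.025 and 0.00087 with 3B10 in 4T1 tumors, and the groups overlapped in both. Tumors hold many cell types, so fewer cells of a type and less RNA per cell cannot be told apart in these values.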

How the data were processed

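RNA of 24 samples, from 3 biological replicates per group, was sequenced by the authors. Per the methods and the submitters' processing notes, reads were aligned to mm10 (GRCm38) with HISAT2, counted on genes with featureCounts and analysed with edgeR and limma; versions are not given in the sources used here. The authors deposited log2 values, and the step that made them is not given. In 18 samples these were log2 CPM to which 0.5 reads had been added, since 100% of the values that stood for fewer than 20000 reads lay within 0.05 of a whole read. In the 4T1 samples 10.9% to 11.3% did, so their reads could not be recovered. A count test had been planned in case the table held counts; as its values were log2, limma 3.58.1 in R 4.3.3 was used (lmFit, eBayes with trend and robust), with Benjamini-Hochberg adjustment over all genes tested. A gene was tested if it reached 1 in at least 3 samples of the fit, after its values were taken off the log scale and the sample's lowest was subtracted. The procedure was also run on simulated counts for the E0771-LG groups. These had the same dispersion for every gene and no trend with length or GC content, unlike the real libraries. Nothing on the results above is read from that run. Positions, transcript lengths and GC content came from GENCODE M21 (GRCm38). The members and lists were chosen with earlier results of these data known. Members named by rule are the 2 of each role group with the highest mean in the cells, the 5 with the highest and the 5 with the lowest log2 fold change in E0771-LG, those at the ends of the chromosome order and those beside sign changes of the running median, with Ptn and related genes of the first kind. Members passing in tumors were also to be named, and there were 0. The further members are given for completeness, and those given at length, such as Apc and Impact, were chosen after their values were seen. Alternatives were other filters, a pseudocount of 1, quantile and median-of-ratios scaling, voom, a replicate block, a correction with splines of 5 degrees of freedom for GC content and length, and leaving out each sample. Plots were made with Python 3.11.15 and matplotlib 3.10.9.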

Additional observations from a re-analysis of the deposited data

Results flagged for a closer look

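The share of all genes that meet the rule used next is not given here, so the count of members is a description. In 6 members, all shPTN samples lay on one side of the shCtrl mean in E0771-LG and on the other side of it in E0771. The interaction term of limma covers this difference in the fit of all genes, but since the members were chosen on it, none of its calls is read here and the difference was not tested in samples outside that choice. The log2 fold change in E0771-LG minus that in E0771 was −1.51 for Epb41l4a, −1.05 for Mapre2, −1.01 for Csnk1a1 and −0.53 for Mbd1. Their shPTN values lay below the shCtrl mean in E0771-LG and above it in E0771. In E0771, however, the groups overlapped for Epb41l4a (0.12, SE 0.12), and the 0.12 of Mbd1 was about the size of its SE. The log2 fold change in E0771-LG minus that in E0771 was above 0 for the others. It was 1.23 for Acaa2 and 0.65 for Snrpd1, whose shPTN values lay above the shCtrl mean in E0771-LG and below it in E0771. For Snrpd1 the E0771 groups overlapped (−0.17, SE 0.1), and its E0771-LG value came to −0.03 after the correction for GC content and length.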

How the results depend on the processing

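Values are the member median minus that of genes on other chromosomes unless another is named. In E0771-LG (−0.567) it was −0.508 with quantile normalization and −0.384 after the GC and length correction, and −0.603 to −0.511 leaving out 1 sample at a time. The line difference (−0.467) was −0.411 with no filter, −0.401 with quantile normalization and −0.316 after the correction, and −0.553 to −0.409 leaving out samples. Between the control groups the value of 0.0531 turned to −0.0142 with no filter and −0.00253 after the correction, and ran from 0.0288 to 0.134 leaving out samples. The chromosome 18 genes outside the list (−0.519) had −0.46 with no filter, −0.486 with a pseudocount of 1 and −0.435 after the correction, and −0.532 to −0.485 leaving out samples. In E0771 (−0.106) it was −0.0654 after the correction. Leaving out samples gave −0.146 to −0.0848 in E0771, −0.356 to −0.281 between the shPTN groups, −0.0347 to 0.0546 in *MMTV-PyMT* and −0.0574 to 0.00392 in 4T1 tumors. In E0771-LG 3 members were higher, 1 to 3 leaving out samples and 1 after the correction, and 36 were lower, 28 to 39 leaving out samples and 30 after the correction. Over all genes tested in E0771-LG, 2531 were higher and 2295 lower, and after the correction 1680 and 2262. Leaving out samples, E0771 had 7 to 13 lower members (12) and 1 to 2 higher (2), the line difference 3 to 5 higher (3), with 5 also with no filter, and the shPTN groups 2 to 7 higher (7). The shares of all genes under the other settings are not given here, so nothing is read from any count of members in this section. Snrpd1 came to −0.03 after the correction. The cause was not tested in any of these. Of 753 values of single members in E0771-LG under the alternatives, 695 moved by less than the replicate spread and 56 by more. The other 2 changed sign after having passed. Both were the −0.03 of Snrpd1, with the correction alone and with the replicate block and the correction together. In E0771 705 of 742 moved by less and 37 by more. Both tallies include the replicate block, which cannot change a log2 fold change. They also include the block with the correction, which repeats the correction, so nothing on stability is read from them. The correction was chosen after seeing the data, as were median-of-ratios scaling, which could not be fitted to 4T1 values, and voom.

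The sample titles do not say whether replicate numbers pair the samples, and 3 samples per group are too few to settle it. Same-numbered samples had correlations of 0.158, 0.237 and −0.117 in E0771-LG, −0.0274, 0.141 and −0.0366 in E0771, −0.0357, 0.132 and 0.208 in *MMTV-PyMT* and −0.327, 0.436 and −0.253 in 4T1. Their own number was the best match in 2, 1, 1 and 1 of 3. Since each number occurs once in every group, a replicate block cannot change a log2 fold change, and the medians with it, which say nothing on pairing or stability, were −0.567, −0.106, −0.467, 0.0531, −0.322, 0.0194, −0.0105 and −0.519 in the order E0771-LG, E0771, line difference, control groups, shPTN groups, *MMTV-PyMT*, 4T1 and genes outside the list, and 3 members were higher and 34 lower in E0771-LG. With the block and the correction together, 19 members were higher (12) and 15 lower (20) between the control groups, and the medians were −0.384 in E0771-LG, −0.316 for the line difference, −0.00253 between control groups, −0.435 outside the list, with 1 higher member in E0771-LG and −0.03 for Snrpd1.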
